A study of Mus musculus with 21 samples.

Results

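The Ikaros family genes Ikzf1, Ikzf2, Ikzf3 and Ikzf5 were followed in germinal centre (GC) B cells of mice with and without the RNA-binding protein PTBP1. The 4 members were selected on the rise of Ikzf3 in light zone cells that lacked PTBP1, and all 4 had a row among the 47729 gene identifiers of the count files. The light zone difference between genotypes is therefore given as a description with no test, and the dark zone difference was tested. The dark zone libraries came from the same pools of mice as the light zone libraries, so they are not an independent set of animals.

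GC B cells divide and mutate their antibody genes in the dark zone (DZ) and are selected for antigen binding in the light zone (LZ). Control mice were CD79a+/+Ptbp1fl/fl and conditional knockout (cKO) mice were CD79acre/+Ptbp1fl/fl, both on C57BL/6, so every mouse carried loxP-flanked Ptbp1 alleles. Only cKO mice carried Cre, placed in the gene of a B cell receptor subunit. The effect of PTBP1 loss and that of Cre with a changed Cd79a allele cannot be told apart. Mice received NP-KLH in alum, and splenic LZ and DZ cells were sorted 7 days later from 8 pools, each of 3 to 5 mice that shared genotype and sex. The labels used here state no age. The LZ control, LZ cKO, DZ control and DZ cKO groups each held 4 mRNA libraries, numbered by sort day, with males on days 1 and 2 and females on days 3 and 4. A further 5 libraries mapped PTBP1 on RNA by iCLIP in another population, splenic B cells of female mice grown with lipopolysaccharide (LPS) for 48 h.

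Ikaros proteins are zinc finger transcription factors of the lymphoid lineage. Their first fingers bind DNA and their last fingers bind other family members, so the proteins work as dimers. They recruit corepressor complexes such as NuRD, Sin3 and CtBP. Ikzf1 encodes Ikaros, which is needed for lymphocytes to form, and Ikzf3 encodes Aiolos, which B cells need for normal maturation and for long-lived plasma cells of high affinity. Ikzf2 encodes Helios, best known in regulatory T cells, and Ikzf5 encodes the more distant Pegasus. PTBP1 binds pyrimidine-rich RNA and regulates splicing, RNA stability and translation. The counts used here are per gene, so they carry no information on which exons were used.

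The libraries held 26823882 to 34240096 gene counts each. Ptbp1 was at 23.3% of the control mean in DZ cKO libraries and at 25.8% in LZ cKO libraries, with no overlap between genotypes. Cd79a, the gene that carries Cre, fell by 1.27 ± 0.13 (SE) on the log2 scale in the dark zone (edgeR quasi-likelihood test, Benjamini-Hochberg adjusted p = 9.97e-05). Summed markers of GC B cells lay between 8204 and 10770 CPM (counts scaled to the size of the library) in every library. Light zone markers summed to 2079 to 2640 CPM in LZ libraries and to 562 to 808 CPM in DZ libraries. Markers of other cell types were present too.

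Ikzf3 was about 2 times as high in dark zone cKO cells as in dark zone control cells. Its level was 427, 429, 443 and 502 CPM in DZ control libraries 1 to 4 (mean 450.1 ± 35.2, SD, n = 4). In DZ cKO libraries 1 to 4 it was 863, 891, 901 and 1024 CPM (mean 919.6 ± 71.7, n = 4). Every cKO library stood above every control library, and the lowest cKO value was well above the highest control value. The log2 fold change was 1.03 ± 0.08 (SE), a fold of 2.04, with a 95% interval of 0.86 to 1.20 on the log2 scale. Ikzf3 passed the test (edgeR quasi-likelihood test over 15789 genes, adjusted p = 4.29e-06) and had the 4th smallest p-value of all genes in this comparison. Over the 8 libraries alone, an exact two-sided permutation test gave p = 0.0286, which is the smallest that 4 against 4 freely permuted libraries can give. That test did not keep the pairing of libraries by sort day. In this comparison 0.627% of all genes passed the test, 49 higher and 50 lower in cKO cells, and Ikzf3 was the only 1 of the 4 members to do so.

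The rise of Ikzf3 in the dark zone had nearly the same size on each sort day. The fold of cKO over control was 2.02 on day 1, 2.08 on day 2, 2.04 on day 3 and 2.04 on day 4. Males and females analysed apart gave log2 fold changes of 1.032 and 1.029. With 2 libraries per group in each sex, edgeR's adjusted p was 0.0544 in males and 0.0856 in females, so neither sex passed the test on its own. In bulk libraries of sorted cells, more transcript per cell and more cells that carry it cannot be told apart.

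**Figure D1:**
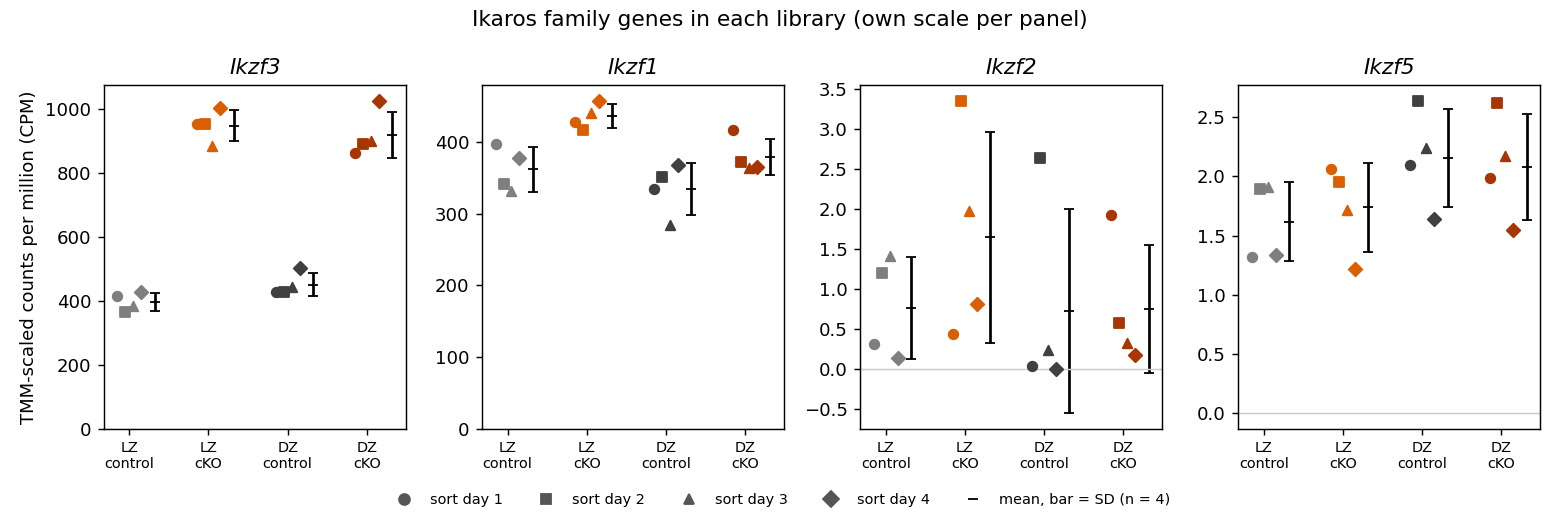
Level of each member (y axis, CPM scaled by TMM, a separate scale in each panel) in the 16 libraries by group (x axis); symbols mark the sort day and bars the mean ± SD of 4 libraries. Ikzf3 lies between 365 and 502 CPM in all 8 control libraries and between 863 and 1024 CPM in all 8 cKO libraries, while Ikzf2 and Ikzf5 stay under 4 CPM.

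In the light zone, the contrast on which the members were chosen, Ikzf3 was 415, 365, 384 and 426 CPM in control libraries 1 to 4. In LZ cKO libraries 1 to 4 it was 952, 952, 883 and 1002 CPM. The means were 397 ± 28.2 and 947 ± 48.8 CPM (SD, n = 4 each), with no overlap. The log2 fold change was 1.25 ± 0.08 (SE), a fold of 2.38, and the fold was 2.30, 2.61, 2.30 and 2.35 on sort days 1 to 4. In this contrast 1.08% of all genes passed the test, which is given for reference since the contrast chose the members.

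Single markers of other cells passed the test between genotypes in the light zone. The dendritic cell markers summed to 55.4 to 79.6 CPM in LZ control and 120 to 154.5 CPM in LZ cKO libraries, with no overlap. Of these 6 markers, 4 had a positive log2 fold change and 1 passed. Clec9a had -2.73 (edgeR, adjusted p = 0.569) and Xcr1 -0.23 (adjusted p = 0.914). Most of the sum came from 1 gene, Flt3. Flt3, a receptor of early lymphoid and dendritic cells, was 56.7 ± 7.68 CPM in control and 125 ± 14.7 CPM in cKO libraries (SD, n = 4). It rose by 1.14 ± 0.11 on the log2 scale (SE; edgeR, adjusted p = 8.07e-05), a call kept in 27 of 28 alternatives and missed in males alone. Gpr183, a migration receptor of the naive and memory B cell list, rose by 1.22 ± 0.21 (adjusted p = 0.0105). That call was lost in 7 alternatives, among them without LZ control library 4 (adjusted p = 0.0533). Of the 10 genes of that list, 8 had a positive log2 fold change and Gpr183 alone passed. Cr2 had -0.57 (edgeR, adjusted p = 0.129) and Ighd -0.31 (adjusted p = 0.88). Itga2b, a platelet integrin, was 0 to 0.0672 CPM in LZ control and 0.652 to 2.77 CPM in LZ cKO libraries. Of the 3 platelet markers tested, Itga2b alone passed there. Pf4 had 0.38 (edgeR, adjusted p = 0.963) and Gp1ba 0.19 (adjusted p = 0.985). Macrophage markers summed to 6.25 to 349.5 CPM against 44.7 to 424 CPM, and NK cell markers to 9.93 to 107 CPM against 35.8 to 128.5 CPM. Their part in the light zone levels of Ikzf3 and Ikzf1 was not tested.

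Ordered by mean level, Ikzf3 was highest in LZ cKO, followed by DZ cKO, DZ control and LZ control. The cKO groups overlapped, at 883 to 1002 CPM in the light zone and 863 to 1024 CPM in the dark zone. The control groups just failed to overlap, since the highest LZ control library had 426 CPM and the lowest DZ control library 427 CPM. The difference of light from dark zone was -0.18 ± 0.08 (SE, log2) in control mice and 0.04 ± 0.08 in cKO mice. In control mice Ikzf3 was lower in the light than in the dark zone on 4 of 4 sort days, by 0.04 to 0.24 on the log2 scale. In cKO mice it was higher in the light zone on days 1 and 2 and lower on days 3 and 4. The genotype difference was 0.22 ± 0.11 (SE, log2) larger in the light than in the dark zone. That value holds the contrast behind the choice of members and is given with no test. Over all genes, edgeR called 0 genes for a genotype difference that differed between zones, with 466 genes at an unadjusted p under 0.05, and DESeq2 called 4, none of them a member.

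Markers of other cells were compared between genotypes in the dark zone too. Of the macrophage, NK cell, plasma cell and dendritic cell markers, 0 passed the test there. Of 10 naive and memory B cell markers, 8 had a positive log2 fold change and 1 passed. That gene was Cr2, lower by 1.15 ± 0.17 (SE, log2; edgeR, adjusted p = 0.00409), where 0.627% of all genes passed. The summed level of 7 macrophage markers was 4.75 to 373 CPM in DZ control and 18.1 to 1123 CPM in DZ cKO libraries. All 7 had a positive log2 fold change there and 0 passed the test. Of these 7, up to 4 were at 0 in a DZ control library and at most 1 in a DZ cKO library. The sum of 6 NK cell markers was 4.1 to 98.3 CPM against 45.7 to 141 CPM, and the sum of 6 plasma cell markers was 2708 to 8220 CPM against 2480 to 12110 CPM. The sum of 6 dendritic cell markers did not overlap, at 62.6 to 74.8 CPM against 78.4 to 115 CPM. Flt3 made up most of that sum. It had 58.7 ± 1.74 CPM in control and 80.1 ± 9.84 CPM in cKO libraries (SD, n = 4).

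The marker sums differed widely between sort days. The dark zone macrophage and plasma cell sums of each day are given beside the Ikzf3 fold. On day 3 the macrophage markers summed to 4.75 CPM in the control and 18.1 CPM in the cKO library, and the Ikzf3 fold was 2.04. On day 2 they summed to 373 and 1123 CPM, and the fold was 2.08. On day 1 the macrophage markers summed to 11.55 and 518 CPM, and the fold was 2.02. On day 4 they summed to 31.4 and 348 CPM, and the fold was 2.04. Plasma cell markers summed to 2708, 3118, 8220 and 2715 CPM in DZ control libraries 1 to 4. In DZ cKO libraries 1 to 4 they summed to 2480, 9170, 12110 and 3314 CPM, lower than in the control on day 1 only. The macrophage, NK cell and dendritic cell sums were higher in the DZ cKO than in the DZ control library on each of the 4 days. The part of these cells in the result was not tested. Without sort day 2, which had the highest macrophage and NK cell sums in all 4 groups, the DZ log2 fold change of Ikzf3 was 1.02 (edgeR, adjusted p = 0.00155).

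**Figure D2:**
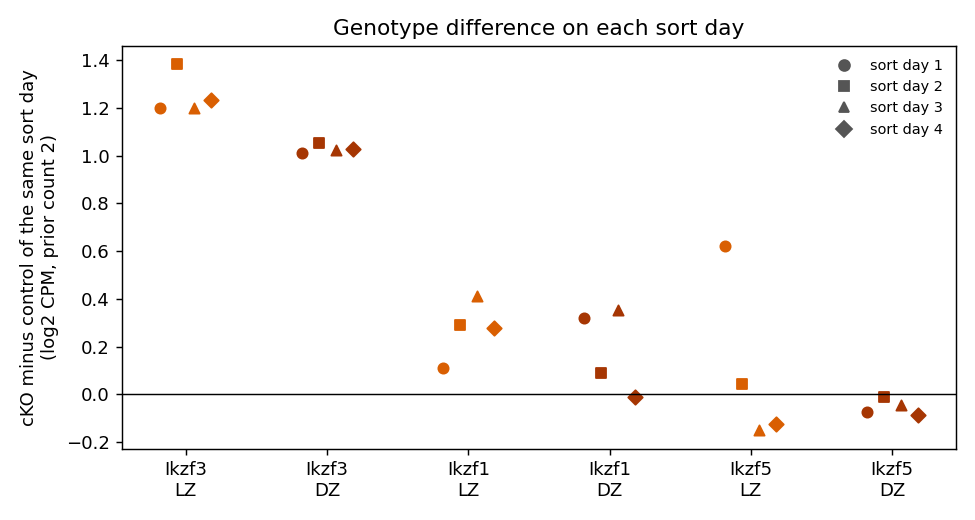
Log2 CPM of the cKO library minus that of the control library of the same sort day and zone (y axis) for Ikzf3, Ikzf1 and Ikzf5 (x axis), 1 point per sort day; Ikzf2 is left out because 4 of its libraries held 5 or fewer counts. Ikzf3 points lie from 1.01 to 1.06 in the dark zone and from 1.20 to 1.38 in the light zone, Ikzf1 points from -0.01 to 0.41, and Ikzf5 points from -0.09 to -0.01 in the dark zone and from -0.15 to 0.62 in the light zone.

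Ikzf1 did not pass the test in the dark zone, although its mean was somewhat higher in cKO cells. Its level was 334, 351, 284 and 368 CPM in DZ control libraries 1 to 4 (mean 334 ± 36.0, SD, n = 4). In DZ cKO libraries 1 to 4 it was 417, 373, 364 and 365 CPM (mean 379.6 ± 25.0). The groups overlapped, because DZ control library 4 exceeded cKO libraries 3 and 4. The log2 fold change was 0.18 ± 0.09 (SE) with a 95% interval of -0.0001 to 0.37 (edgeR, adjusted p = 0.441; exact two-sided permutation p = 0.0857). The interval leaves out a doubling such as that of Ikzf3. By sort day the difference was 0.32, 0.09, 0.35 and -0.01 on the log2 scale.

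In the light zone Ikzf1 was 398, 341, 331 and 377 CPM in control libraries 1 to 4 and 429, 417, 441 and 457 CPM in cKO libraries 1 to 4. The means were 362 ± 31.0 and 436 ± 17.0 CPM (SD, n = 4), and every cKO library stood above every control library. The log2 fold change was 0.27 ± 0.09 (SE), and it was 0.11, 0.29, 0.41 and 0.28 on days 1 to 4. This difference is a description and did not reach the threshold in the main fit, where 1.08% of all genes did. The share of all genes with no overlap in this contrast is not given here. Between zones, Ikzf1 did not pass the test in either genotype. Light minus dark zone was 0.11 ± 0.09 in control mice (edgeR, adjusted p = 0.53), where 7.49% of all genes passed. It was 0.20 ± 0.09 in cKO mice (adjusted p = 0.174), where 9.09% of all genes passed.

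Ikzf2 was barely detected, with 0 to 112 counts per library. It had 1, 86, 7 and 0 counts in DZ control libraries 1 to 4 and 63, 18, 9 and 5 counts in DZ cKO libraries 1 to 4. A single library therefore held most of the counts in each group. The LZ control libraries 1 to 4 held 10, 36, 42 and 4 counts and the LZ cKO libraries 12, 112, 60 and 28 counts. The DZ log2 fold change was 0.04 ± 1.23 (SE; edgeR, adjusted p = 0.994), with a 95% interval of -2.57 to 2.66 that spans large changes either way, so these libraries do not resolve a change. In the light zone it was 1.11 ± 1.24, given as a description. Light minus dark zone was 0.06 ± 1.23 in control mice (adjusted p = 0.99) and 1.13 ± 1.24 in cKO mice (adjusted p = 0.651).

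Ikzf2 levels and markers of other cells went together in some groups and not in others. In LZ cKO library 2, which had 3.36 CPM of Ikzf2, 10 T cell markers summed to 354 CPM, the highest of its group. In DZ control library 2, with 2.64 CPM of Ikzf2, they summed to 202 CPM, again the highest of its group, and the macrophage markers to 373 CPM. In DZ cKO the highest Ikzf2 level was 1.93 CPM in library 1, while the T cell markers were highest in library 2, at 187 CPM. In LZ control the highest Ikzf2 level was 1.41 CPM in library 3, where T cell markers summed to 272 CPM against 407 CPM in library 2, and macrophage markers to 6.25 CPM, the lowest of the group. Lck, a kinase of T cells, made up much of the T cell sum, at 109 ± 21.1 CPM in DZ control and 153 ± 37.0 CPM in LZ cKO libraries (SD, n = 4). The T cell sums thus largely follow this 1 gene. Between genotypes Lck had -0.56 in the light zone (log2; edgeR, adjusted p = 0.189) and -0.37 in the dark zone (adjusted p = 0.495). Of the 9 T cell markers tested, 6 had a positive log2 fold change in each zone and 0 passed. The part of other cells in the Ikzf2 counts was not tested.

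Ikzf5 was low in every library, at 41 to 86 counts, and did not pass in any comparison tested. It was 2.10, 2.64, 2.24 and 1.64 CPM in DZ control libraries 1 to 4. The DZ cKO libraries of the same days had 1.99, 2.62, 2.17 and 1.54 CPM. On each day the cKO library was within 0.09 of the control library on the log2 scale. The log2 fold change was -0.05 ± 0.28 (SE; edgeR, adjusted p = 0.973), with a 95% interval of -0.65 to 0.55. In the light zone the means were 1.62 ± 0.33 CPM in control and 1.74 ± 0.38 CPM in cKO libraries (SD, n = 4). By sort day the light zone difference was 0.62, 0.04, -0.15 and -0.13 on the log2 scale, a wider spread than in the dark zone. Light minus dark zone was -0.42 ± 0.28 (log2) in control mice (adjusted p = 0.472) and -0.26 ± 0.28 in cKO mice (adjusted p = 0.653). Ikzf5 was lower in the light than in the dark zone on 4 of 4 days in control mice, by 0.22 to 0.64 on the log2 scale, and on 3 of 4 days in cKO mice. Ikzf4, which encodes the remaining member Eos, had 0 to 51 counts per library. Its DZ log2 fold change was 0.26 ± 1.34 (edgeR, adjusted p = 0.971).

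iCLIP places PTBP1 on RNA at single positions after UV crosslinking, and each site is scored by its cDNAs, the distinct molecules counted there. Its sites come from LPS-grown B cells and not from GC cells, 1 condition, with no control immunoprecipitation used here. A site count depends on how much RNA of the gene those cells held and on gene length, and RNA levels of those cultures were not analysed here. Ikzf1 and Ikzf3 had many sites and Ikzf2 and Ikzf5 had 0, so 2 of 4 members carried a site on their strand. Among 14333 tested genes with a known span, 45.2% carried at least 1 site. The share of the members is thus near that of all genes.

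Ikzf1 spans chr11:11684962-11772930 on the plus strand (GRCm38.p6), 88.0 kb. The list pooled by the authors held 493 sites there with 865 cDNAs, all on the strand of the gene. It ranked 38th of 14333 genes by number of sites and 169th by sites per kb, at 5.6 per kb. Ikzf3 spans chr11:98464610-98546031, 81.4 kb, and its 267 sites with 404 cDNAs were all on the minus strand, from which its strand was taken. It ranked 100th by number of sites and 357th by density, at 3.28 per kb. Genes with a site had a median of 10 sites and 0.364 sites per kb, and 80 sites or 2.0 per kb marked the 90th percentile. Ikzf2 (chr1:69531207-69687351) and Ikzf5 (chr7:131388649-131410518) had 0 sites on either strand, and Ikzf4 had 4 sites with 4 cDNAs. Of the Ikzf3 sites, 6 with 15 cDNAs lie in Gm25106, an overlapping pseudogene, and cannot be assigned to either gene.

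Few sites of Ikzf3 recurred between the separate replicates. The 5 replicate lists, which the authors called one by one, held 0, 42, 11, 43 and 13 Ikzf3 sites and 55, 138, 6, 136 and 56 Ikzf1 sites. The lists were of unequal length, from 6211 to 45505 sites in all. Of the 267 pooled Ikzf3 sites, 102 were in at least 1 replicate list, 7 in at least 2 (2.62%) and 0 in at least 3. Of the 493 Ikzf1 sites, 295 were in at least 1 list, 57 in at least 2 (11.6%), 20 in at least 3 (4.06%) and 2 in all 5. Over all 244659 pooled sites, 37.9% were in at least 1 list, 5.64% in at least 2 and 2.06% in at least 3. A single cDNA stood behind 189 of the Ikzf3 sites (70.8%) and 326 of the Ikzf1 sites (66.1%), against 72.6% of all pooled sites. The highest site had 7 cDNAs in Ikzf3 and 18 in Ikzf1, and 3 and 29 sites had 5 or more.

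**Figure D3:**
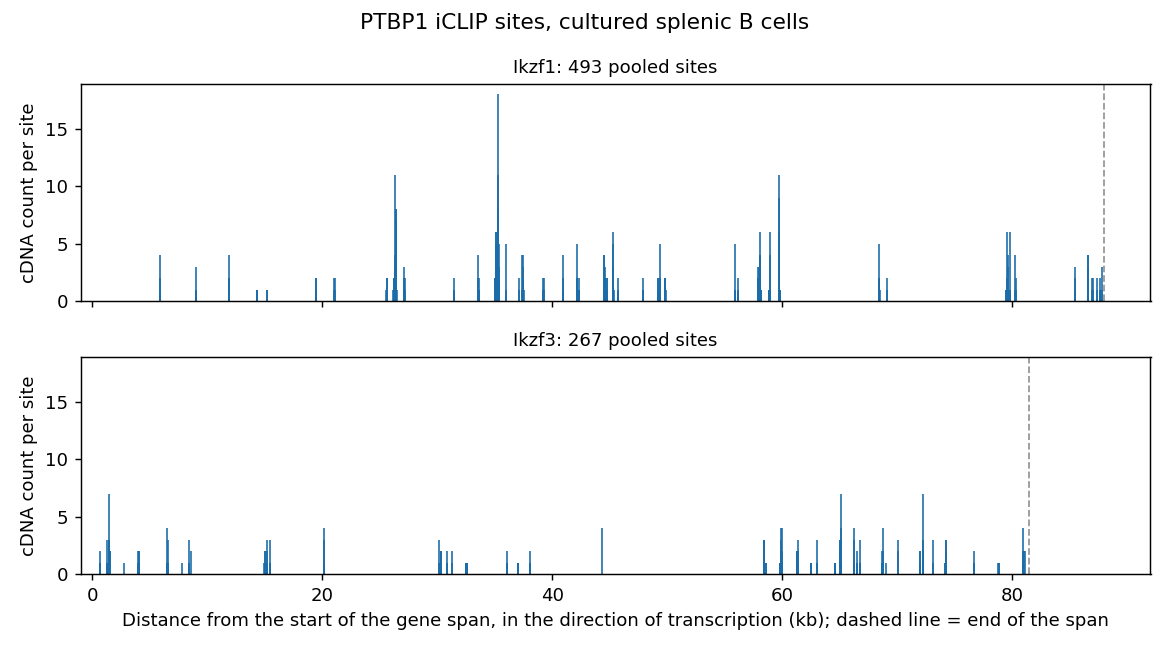
PTBP1 iCLIP sites along Ikzf1 (top) and Ikzf3 (bottom) in the pooled list: cDNA count of each site (y axis) against its distance in kb from the start of the gene span in the direction of transcription (x axis), with the end of the span dashed. The highest site reaches 18 cDNAs in Ikzf1 and 7 in Ikzf3, and the middle of 5 equal stretches of the Ikzf3 span holds 14 of its 267 sites.

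The sites were spread differently along the genes. Sites no more than 15 nt apart were joined into clusters, which gave 62 clusters in Ikzf1 and 55 in Ikzf3. The leading Ikzf1 cluster, chr11:11711234-11711420, lay 26.3 kb from the gene start. It held 74 sites and 156 cDNAs, 18.0% of all cDNAs of the gene, and had sites in all 5 replicate lists. The next, chr11:11720266-11720354, held 83 cDNAs, also with sites in all 5 lists. In Ikzf3 the leading cluster, chr11:98486063-98486137, lay 59.9 kb from the start and held 27 cDNAs with sites in 2 lists. The cluster chr11:98544546-98544578, 1.45 kb from the start, held 26 cDNAs and was the only Ikzf3 cluster with sites in at least 3 lists, against 8 such clusters in Ikzf1. The top 5 clusters held 41.3% of the cDNAs of Ikzf1 and 26.2% of those of Ikzf3. In 5 equal stretches of the span from the start, Ikzf1 had 41, 137, 183, 79 and 53 sites, most in the middle. Ikzf3 had 78, 31, 14, 78 and 66, fewest in the middle. Whether these clusters are exonic or intronic was not analysed here.

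Start site windows of 2 of the 4 members were listed by RefSeq (GRCm38.p6), each with 250 bases before and 50 bases after an annotated start. The windows of Ikzf1, the member with most PTBP1 sites, are shown. Both of its listed starts lie inside the gene span used here, 0.96 and 5.21 kb from the start of the span. They were searched for TCTT, a DNA form of the pyrimidine motif bound by PTBP1, on both strands, and capitals mark it on the sense strand. The upstream window is chr11:11685675-11685974 and the downstream window chr11:11689927-11690226, both on the plus strand.
Ikzf1 upstream start: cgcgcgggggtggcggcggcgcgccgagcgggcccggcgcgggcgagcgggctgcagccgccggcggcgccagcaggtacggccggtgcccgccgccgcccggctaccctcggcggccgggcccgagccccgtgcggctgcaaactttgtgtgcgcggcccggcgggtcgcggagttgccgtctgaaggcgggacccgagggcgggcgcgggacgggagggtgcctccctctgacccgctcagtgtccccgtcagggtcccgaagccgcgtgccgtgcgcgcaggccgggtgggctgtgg
Ikzf1 downstream start: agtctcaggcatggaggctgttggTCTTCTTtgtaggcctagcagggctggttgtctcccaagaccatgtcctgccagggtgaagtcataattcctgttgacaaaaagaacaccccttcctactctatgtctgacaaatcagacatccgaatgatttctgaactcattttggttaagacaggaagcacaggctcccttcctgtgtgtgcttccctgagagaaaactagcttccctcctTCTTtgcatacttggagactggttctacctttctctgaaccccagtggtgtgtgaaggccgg
The upstream window is 81.3% G and C and held 0 matches on either strand. The downstream window, 49.0% G and C, held 3 matches on the sense strand, with 2 of them overlapping, and 3 on the other strand. Of 32851 such windows, 69.9% held TCTT on the sense strand and 20.9% held at least 3. Neither window held a pooled iCLIP site. The Ikzf5 window held 0 matches on the sense strand and 1 on the other.

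Partner proteins and reported targets of the family were examined in the dark zone comparison from lists chosen with earlier results known. Of 17 corepressor genes of NuRD, Sin3 and CtBP, 0 passed the test, and their median log2 fold change was -0.08 against 0.01 for all genes. Mta3, a NuRD subunit of GC B cells, had -0.30 ± 0.08 (SE; edgeR, adjusted p = 0.111). Sin3b had 0.20 ± 0.09 (adjusted p = 0.394). Of the 5 genes of the cereblon ubiquitin ligase, through which drugs such as lenalidomide degrade human Ikaros and Aiolos, 0 passed, with a median of -0.05.

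Genes reported under Ikaros or Aiolos control in lymphocytes showed no call either. Of 19 such genes 15 were tested and 0 passed, 7 with a positive log2 fold change, and the median was -0.08. Among them Myc, a driver of cell growth, had 0.29 ± 0.16 (SE; edgeR, adjusted p = 0.539). Blnk, an adaptor of B cell receptor signalling, had -0.18 ± 0.07 (adjusted p = 0.267). Bcl2, an inhibitor of cell death, had 1.17 ± 0.53 (adjusted p = 0.42), and Foxo1, a dark zone transcription factor, had -0.31 ± 0.12 (adjusted p = 0.316). With the sort day as replicate block, which raised the DZ count of calls from 99 to 517 (3.27% of all genes), Bcl2 (1.21, adjusted p = 0.00854) and Foxo1 (-0.31, adjusted p = 0.00973) passed the test. Naive and memory B cell markers summed to 605 to 944 CPM in DZ control and 605 to 1208 CPM in DZ cKO libraries. Their part in the Bcl2 value was not tested.

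Of 14 other B cell transcription factors, 0 rose and 1 fell in the dark zone, with a median of -0.19. The gene that fell was Spib, an ETS factor of B cells, at -0.32 ± 0.06 (SE; edgeR, adjusted p = 0.0345). This call was lost in 15 of 28 alternative analyses. Among these were the fits without DZ control library 2, 3 or 4, without DZ cKO library 1, 2 or 4 and without LZ control library 4, at adjusted p-values of 0.0546 to 0.107. With the replicate block Mbd2, a NuRD subunit (-0.32, adjusted p = 0.0316), and the transcription factors Pou2f2 (-0.42, adjusted p = 0.0172) and Ebf1 (-0.37, adjusted p = 0.0112) passed as lower. In the light zone comparison 0 genes of these 4 lists passed. Hdac1 (-0.21, adjusted p = 0.0306), Rbbp7 (-0.33, adjusted p = 0.0236) and Pou2f2 (-0.36, adjusted p = 0.026) passed as lower there with the block, under which 5.5% of all genes passed against 1.08% without it.

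**Figure D4:**
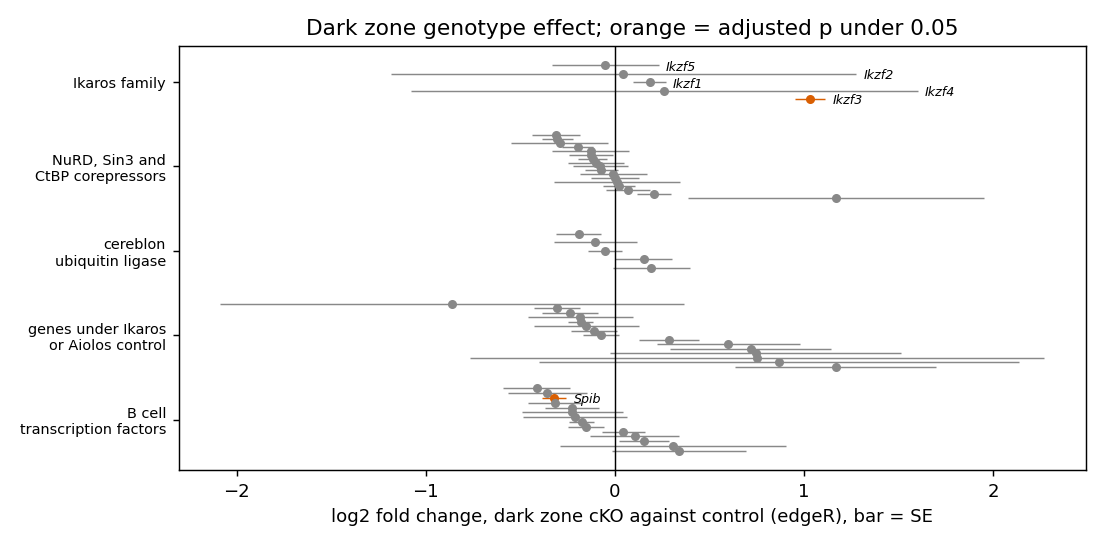
Log2 fold change of dark zone cKO against control with its SE (x axis) for each tested gene of the Ikaros family and of 4 related lists (y axis), 1 point per gene, orange where edgeR's adjusted p is under 0.05. Ikzf3 at 1.03 and Spib at -0.32 are the 2 genes that passed.

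The genes whose pattern over the 16 libraries was most like that of Ikzf3 were ranked by Pearson's r of log2 CPM among 8873 genes with an average log2 CPM of at least 3. They were Ptbp2 (r = 0.973), the neuronal paralog of Ptbp1, Ass1 (0.96), an enzyme of arginine synthesis, Clip1 (0.946), a microtubule-binding protein, Mettl22 (0.936) and Ifi27 (0.912). The libraries fall into 2 sets by genotype for Ikzf3, so r follows that difference. Within the 8 control libraries r was 0.47, 0.28, 0.75, -0.04 and 0.25 for these genes in order. Within the 8 cKO libraries it was -0.27, 0.31, 0.50, 0.69 and 0.87. These values are a description, and the libraries of 1 sort day share their day and, within a genotype, their mice. The mean level of Ptbp2 was 13.2 CPM in LZ control, 159 CPM in LZ cKO, 16 CPM in DZ control and 215.5 CPM in DZ cKO. Ifi27, an interferon-induced gene, had 59.3, 93.8, 60.4 and 97.2 CPM in the same order.

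Among the family, Ikzf1 had r = 0.663 with Ikzf3 over the 16 libraries, but 0.09 within control and 0.04 within cKO libraries. For Ikzf2 r was 0.229, for Ikzf4 0.05 and for Ikzf5 -0.02.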

How the data were processed

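The 16 mRNA libraries were deposited as whole-number counts per Ensembl gene. HTSeq, HISAT2 and Trim Galore 0.4.2 are named with GRCm38 in the submitters' processing notes. No source used here names the annotation release or the strand setting, so overlapping genes such as Ikzf5 and Pstk are uncertain. Per the labels' protocols, 2 ng of RNA and 8 PCR cycles went into each library. The 5 summary lines that name no gene held 41.4% to 49.8% of entries and were left out. The deposited score of each iCLIP site gives the cDNA number with the strand as its sign. Per the file headers, sites passed a false discovery rate of 0.05 from 100 permutations within 15 nt, with Ensembl 75 gene models. The authors called 5 replicate lists and 1 list pooled over the replicates.

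The test was the robust quasi-likelihood fit of edgeR 4.0.16 (R 4.3.3) on genes kept by filterByExpr at 10 counts, after TMM scaling. All 16 libraries entered 1 fit without a block, and p-values were adjusted over 15789 genes at a threshold of 0.05. All 4 members passed the filter. Levels are CPM with TMM scaling, and they are not compared between genes because transcript lengths were not used here. The fit was tested on simulated data before use. Replicate libraries differed by more than sampling noise (chi-square per degree of freedom 23.8 to 183). The replicate number pairs the libraries, because the labels tie it to the sort day and to the pool of mice. Deviations of same-day libraries from their group means correlated at 0.0944 to 0.39. The fit was repeated under 28 alternatives, among them DESeq2 1.42.0. Sites were counted within RefSeq gene spans (GRCm38.p6) on the strand of the gene, and the strand came from the promoter table for 10430 genes and from the sites themselves for 3903.

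Members and lists were chosen with earlier results of these data known. Named genes were the 4 members and Ikzf4, Ptbp1 and Cd79a, up to 4 genes per list that passed in a genotype comparison, and the 5 genes most like Ikzf3. Mta3, Sin3b, Myc, Blnk, Bcl2, Foxo1, Flt3, Gpr183, Itga2b, Lck and the genes that passed only with the block fall outside this rule and were named after their values were seen. The same holds for Clec9a, Xcr1, Cr2, Ighd, Pf4 and Gp1ba.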

Additional observations from a re-analysis of the deposited data

Results flagged for a closer look

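The spread within groups was checked for the 4 members over the 4 groups, 16 sets of 4 libraries. Chance alone marks about 1 in 20 such sets, and 2 were marked. Ikzf1 in DZ cKO library 1 was 416.7 CPM, and its gap to the next library was 0.832 of the range of the group, just above the 95% critical value of Dixon for 4 libraries. Ikzf2 in DZ control library 2 was 2.641 CPM, with a gap of 0.913 of the range. That library also had the highest T cell, NK cell and macrophage marker sums of its group, and their part in the Ikzf2 value was not tested.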

How the results depend on the processing

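The rise of Ikzf3 in the dark zone passed edgeR's test in 26 of 28 alternatives and was missed in males alone (1.032) and females alone (1.029), where each group holds 2 libraries. Leaving out libraries or sort days gave 0.97 to 1.09. The replicate block changed no call among the members in the comparisons tested. These leave out the members' light zone genotype differences and the zone differences of Ikzf3, which are given with no test. Among those left out, the block did move values across the threshold. For Ikzf1 between genotypes in the light zone, edgeR's adjusted p was 0.164 in the main fit and 0.0415 with the block. For Ikzf3 between zones in control mice it was 0.213 in the main fit and 0.0377 with the block. Both values are given for reference only. No setting gave a call for Ikzf1 or Ikzf5 in the dark zone. Low counts limit Ikzf2, Ikzf4 and Ikzf5, whose signs were unstable. Ikzf2 in the dark zone was -0.10 in males and -1.43 to 3.16 over left-out libraries. Between zones in control mice it was -0.82 in males and -0.74 to 3.08 over left-out libraries. Ikzf5 in the dark zone ranged from -0.18 to 0.063 over left-out libraries and Ikzf4 from -0.55 to 0.87.

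Counts of genes past the threshold moved far more than the members did. In the main analysis they were 99 for genotype in the dark zone, 171 for genotype in the light zone, 1183 for zone in control and 1436 for zone in cKO mice. In the same order they were 517, 868, 2166 and 2727 with the replicate block, 2, 3, 288 and 451 in males and 4, 9, 257 and 364 in females. DESeq2 gave 432, 564 and, for zone in cKO mice, 2171. With only the groups compared they were 52, 98 and, for zone in cKO mice, 820, and without a filter 102 for genotype in the light zone. Left-out libraries and sort days gave 23 to 101, 17 to 195, 576 to 1213 and 672 to 1459. The cause of these shifts was not tested. By Spearman's rho, 2 of the 5 genes most like Ikzf3 stayed among the first 5.

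Site counts fell with each stricter rule, for Ikzf1 to 29 with at least 5 cDNAs and 20 in at least 3 lists, and for Ikzf3 to 3 and 0. Single replicate lists held 55, 138, 6, 136 and 56 Ikzf1 sites and 0, 42, 11, 43 and 13 Ikzf3 sites.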

Other observations

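Of the 13 tested genes within 250 kb of Ikzf3, 0 passed the test in the dark zone and 1 in the light zone, Grb7, an adaptor of receptor tyrosine kinase signalling that was named after its values were seen. Grb7 lies at chr11:98446834-98455373, near the end of Ikzf3. Its span lies within that of Mien1 (chr11:98437708-98458230), and reads of the 2 genes may be hard to assign. Mien1 was at -0.23 in the light zone (edgeR, adjusted p = 0.499) and -0.09 in the dark zone (adjusted p = 0.883) on the log2 scale. Grb7 held 13, 24, 20 and 36 counts in LZ control libraries 1 to 4 and 235, 148, 155 and 80 counts in LZ cKO libraries, with no overlap. The LZ log2 fold change of Grb7 was 2.74 (edgeR, adjusted p = 0.00718), in a contrast where 1.08% of all genes passed. This call was lost in 5 of 28 alternatives, without sort day 1, 2 or 3 and within each sex, at adjusted p-values of 0.0681 to 0.366. In the dark zone Grb7 was 0.87 ± 0.42 (SE; adjusted p = 0.451), with 86, 49, 44 and 55 counts in control and 93, 178, 72 and 70 counts in cKO libraries. The neighbours Zpbp2 and Ormdl3 on the other side of Ikzf3 were at -0.62 (edgeR, adjusted p = 0.382) and 0.22 (adjusted p = 0.655) on the log2 scale in the dark zone.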
